A study of Mus musculus with 6 samples.

Results

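Fibroblast growth factors (FGFs), their receptors and binding proteins, and the Sprouty and Spred inhibitors of their signaling were compared between B16F10 melanomas grown at different body sites. The genes were chosen by symbol alone: every Fgf gene with a number, Fgfr1 to Fgfr4, Fgfrl1, the Fgfbp genes, Spry1 to Spry4 and Spred1 to Spred3. Of the 45777 genes in the count table, 35 carried such a symbol, and Spry3 was not analysed here. B16F10, a pigmented melanoma cell line derived from C57BL/6 mice, was injected into the hind footpad or the flank skin, and 3 tumors of each site were profiled by total RNA sequencing, with 1 library apiece. The study asked how the mechanical load on the sole affects melanoma. According to the sample labels, all 6 hosts were Foxn1-/- mice aged 8 weeks. Such animals lack a thymus and most T cells but keep innate immune cells, fibroblasts and vessels. The study grew B16F10 tumors in C57BL/6J mice, described as syngeneic grafts, and in other experiments in Foxn1-null mice. Its methods name no host for the sequenced tumors. They state that B16F10 cells were isolated from the implantation sites, but not how these were separated from host tissue.

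FGFs are secreted proteins that bind receptor tyrosine kinases together with heparan sulfate, while the endocrine FGFs use Klotho proteins as co-receptors. The activated receptor signals through the adaptor FRS2 to the RAS-ERK cascade, which in turn raises Sprouty, Spred, DUSP and ETV genes, and Sprouty and Spred proteins restrain the same cascade. In skin, FGF7 and FGF10 from fibroblasts act on FGFR2 of keratinocytes, and FGF2 is a known growth factor for melanocytes, fibroblasts and endothelial cells.

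Each tumor had between 46529649 and 66364366 reads counted on genes, and replicates of a site varied beyond counting noise. Levels below are CPM, reads relative to the library size as scaled by edgeR's TMM method, except where FPKM, which also divides by transcript length, is named. A count of 3 reads was taken as the detection limit and equalled 0.0438 to 0.0673 CPM. Melanocyte markers summed to between 10067 and 18637 CPM in footpad tumors and between 14814 and 25513 CPM in flank skin tumors, and of the 8 markers 0 were called by edgeR's quasi-likelihood test or DESeq2 and 1 had an unadjusted p under 0.05 in edgeR, as did 25.3% of all genes tested. That marker was Tyr, with a log2 fold change, footpad minus flank skin, of -1.14 (edgeR, adjusted p = 0.198). Of the 8 markers, 7 had negative fold changes, with a list median of -0.29 on the log2 scale. Markers of host cells were also detected. Over all genes tested, edgeR called 2.89% higher in footpad tumors, and DESeq2 called 8.75% in either direction. All 10 fibroblast markers had a positive fold change and 6 were called higher in footpad tumors, where the list summed to 719 to 886 CPM against 77.5 to 167 CPM in flank skin tumors. Of 6 endothelial markers, 5 had a positive and 1 a negative fold change, and 3 were called higher. The sum of the 6 was 117 to 184 CPM against 68.1 to 83.3 CPM. Footpad replicate 2 stood apart from the other tumors in markers of epidermis and muscle. Its keratinocyte markers summed to 638 CPM, against 17.8 to 59.9 CPM in the other tumors, and its skeletal muscle markers summed to 1072 CPM, against 11.1 to 197 CPM. Of 7 tested keratinocyte markers, edgeR called 0, with 6 at an unadjusted p under 0.05, and DESeq2 called 2 higher. Macrophage markers summed to 86.6 to 106 CPM in footpad and 22.9 to 89.4 CPM in flank skin tumors, with 1 of 6 called higher by edgeR and by DESeq2. Neutrophil markers summed to 341, 6.61 and 167 CPM in footpad replicates 1, 2 and 3 and to 19.1, 28.8 and 4.22 CPM in the flank skin, so that footpad replicate 1 was the highest and replicate 2 lay among the flank skin tumors. All 6 of these markers had positive fold changes, with a median of 3.39 on the log2 scale, and were highest in footpad replicate 1. EdgeR called 0 of them, with 6 at an unadjusted p under 0.05, and DESeq2 called 1 higher. The Schwann cell, skeletal muscle and adipocyte lists had 0 genes called by edgeR or DESeq2, with 1, 0 and 0 at an unadjusted p under 0.05. In RNA pooled from many cells, fewer cells of a type and less RNA per cell cannot be told apart.

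A gene was called if its change was at least 2-fold and its adjusted p lay under 0.05, and 3 members were called: Fgf2 and Fgfr1 were higher and Fgf21 was lower in footpad tumors. They were 3 of the 17 members that passed the filter on low counts, where 3.76% of all 17210 genes tested were called, or 4.87% with no limit on the fold. DESeq2 called the same 3 members, and 8.75% of all genes. With the replicate number as a block, edgeR called 0 members, with adjusted p of 0.114 for Fgf2, 0.0872 for Fgfr1 and 0.0862 for Fgf21. The methods describe simultaneous injection of several sites, and a figure legend of the study gives 3 mice for selected genes compared between these sites. Footpad and flank skin tumors may therefore share animals, which the main test without a block ignores. No source used here ties a replicate number to a mouse. Of the other members, 7 had no read in any tumor and 11 had too few reads for the test. The median log2 fold change, footpad minus flank skin, was 0.37 over the 17 members tested and -0.004 over all genes tested, and without footpad replicate 2 the former was -0.16. The 3 footpad tumors lay all above or all below the 3 flank skin tumors in 7 of the tested members, and in 32.5% of all genes tested. These 7 include Fgf9, which met the filter through the footpad tumors and also enters the median.

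**Figure D1:**
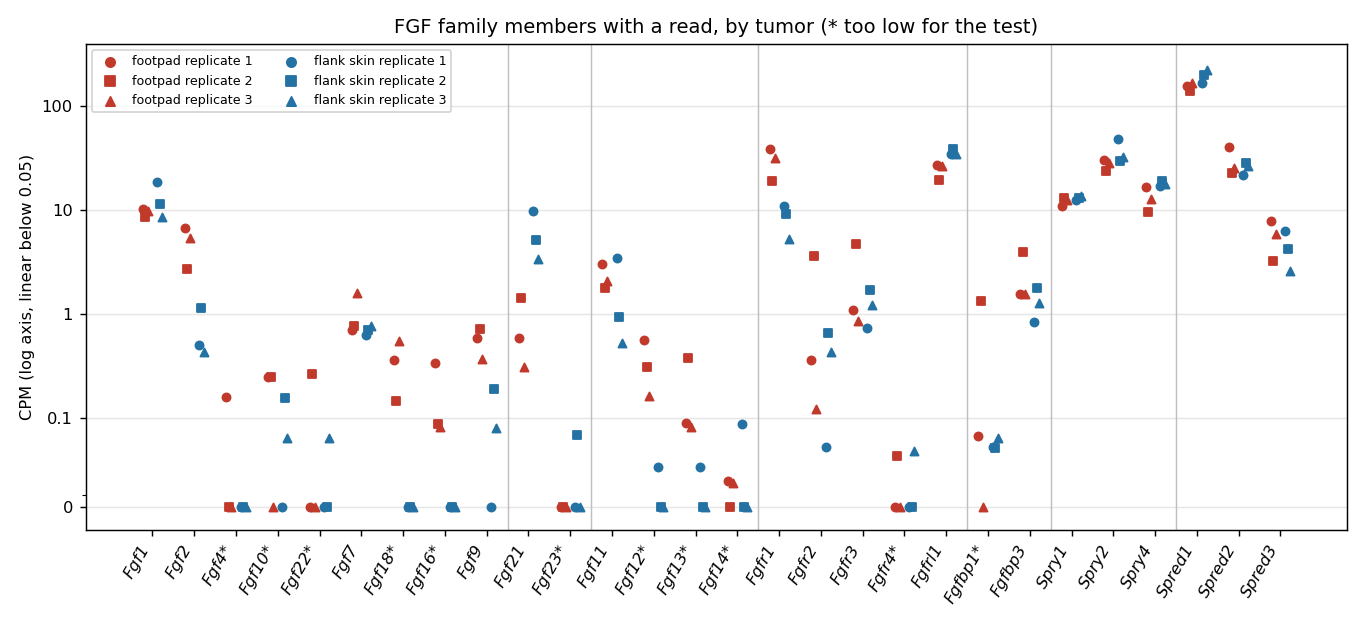
CPM of the 28 members with a read in each of the 6 tumors, on a log axis that is linear below 0.05. Red symbols are footpad and blue symbols flank skin tumors, the symbol shape gives the replicate, an asterisk marks members too low for the test, and vertical lines separate canonical ligands, endocrine ligands, intracellular homologs, receptors, binding proteins, Sprouty and Spred genes. Fgf2 and Fgfr1 have all red symbols above the blue, Fgf21 the reverse, and Fgf18 and Fgf16 have reads in footpad tumors only.

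The sequence shown here is the promoter of Fgf21, the ligand that was called lower, because it holds a known stress-response element. It is the 250 bases before the RefSeq transcript start (GRCm38.p6), chr7:45615491-45615740, printed 5′ to 3′ on the minus strand, which is the strand of the gene. The window of Fgf2 is not shown.

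Fgf21 promoter: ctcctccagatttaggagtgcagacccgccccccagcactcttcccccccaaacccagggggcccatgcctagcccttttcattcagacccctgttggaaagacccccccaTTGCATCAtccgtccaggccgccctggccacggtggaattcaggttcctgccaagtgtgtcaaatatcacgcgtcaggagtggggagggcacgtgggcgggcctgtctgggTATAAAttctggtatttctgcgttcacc

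Capitals mark matches to 4 motifs searched on both strands: TGATGNAA, a C/EBP-ATF composite element bound by the stress factor ATF4; GGAATG, bound by TEAD factors; TGANTCA, bound by AP-1; and the TATA box TATAAA. The Fgf21 window held the composite element on the opposite strand, 139 to 132 bases before the start, and a TATA box 28 to 23 bases before it. Among all 32851 promoter windows of the same length, 3.45% held TGATGNAA, 12.6% GGAATG, 6.75% TGANTCA and 12.4% TATAAA. Of 34 windows that belonged to members, 1, 4, 2 and 2 held these motifs in the same order. A window was found for 27 of the 35 members, and that of Fgfr1 is not among them. A match is a description of the letters and not evidence of binding.

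Among the secreted ligands, 18 genes in all, 11 had a read, 5 were tested and 2 were called, where edgeR called 3.76% of all genes tested. Fgf2 (chromosome 3, 37348477 to 37410106), a heparin-binding mitogen of mesenchymal and endothelial cells, reached 6.67, 2.74 and 5.41 CPM in the footpad (replicates 1, 2 and 3, the order used throughout) and 0.5002, 1.15 and 0.431 CPM in the flank skin. Every footpad tumor lay above every flank skin tumor, and the lowest footpad tumor was replicate 2. The means were 4.94 ± 2.005 and 0.693 ± 0.394 CPM (SD, n = 3 per site). Fgf2 rose 7.11-fold in footpad tumors, a log2 fold change of 2.83 with a standard error of 0.52 (edgeR's quasi-likelihood test, Benjamini-Hochberg adjusted p = 0.0321). By DESeq2 the adjusted p was 2.64e-06. When single tumors were left out, the call held without footpad replicate 2 and without flank replicate 2. Without footpad replicates 1 or 3 the adjusted p was 0.114 or 0.125, and without flank replicates 1 or 3 it was 0.0737 or 0.110 (edgeR). The fold change stayed between 2.55 and 3.39 on the log2 scale when each tumor was left out.

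Fgf2 overlaps its antisense neighbor Nudt6 (chromosome 3, 37404982 to 37420242), and the strand setting of the read counting is not given in the sources used here. Nudt6, named after its values were seen, was at 2.32 ± 0.25 CPM in footpad and 2.72 ± 0.536 CPM in flank skin tumors (SD, n = 3), with a log2 fold change of -0.23 (edgeR, adjusted p = 0.654). Fibroblast and endothelial markers were higher in the same 3 tumors in which Fgf2 was higher. The endothelial sum (175, 117 and 184 CPM) and the neutrophil sum, like Fgf2, were higher in footpad replicates 1 and 3 than in replicate 2. In replicate 2 the endothelial sum stayed above every flank skin tumor, and the neutrophil sum did not. The fibroblast sum was lowest among footpad tumors in replicate 1. The part of these cells in the Fgf2 difference was not tested.

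Fgf1, which can activate all FGF receptors, had the highest CPM of the secreted ligands in every tumor. It was measured at 10.3, 8.59 and 9.92 CPM in footpad tumors and at 18.6, 11.4 and 8.61 CPM in flank skin tumors. The sites overlapped, and only flank skin replicate 1 lay clearly apart. The log2 fold change was -0.42 with a 95% interval from -1.10 to 0.26 (edgeR, adjusted p = 0.406). Fgf1 lies within the span of Arhgap26, so its reads could include those of that gene.

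Fgf9, a ligand that acts on mesenchyme, was low at both sites. It had 26, 49 and 18 reads in footpad tumors and 0, 11 and 5 reads in flank skin tumors, or 0.555 ± 0.175 against 0.0894 ± 0.0944 CPM (SD, n = 3). The sites did not overlap. The log2 fold change of 2.61 (SE 0.95) did not pass the test after adjustment (edgeR, adjusted p = 0.143), with an interval from 0.40 to 4.82, and became 3.70 without flank replicate 2 (adjusted p = 0.136). Fgf9 met the filter on low counts through the footpad tumors, with 3 of them and 1 flank skin tumor above the filter's level. Its fold change, interval and lack of overlap are therefore a description. Fgf7, a fibroblast product that stimulates epithelium, ranged from 0.696 to 1.59 CPM in footpad and from 0.621 to 0.767 CPM in flank skin tumors and did not pass the test either (adjusted p = 0.471).

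Fgf18 and Fgf16 were seen in footpad tumors only, in the sense that no flank skin tumor had a read. Fgf18 (chromosome 11, 33116970 to 33147400), a ligand of cartilage, bone and mesenchyme, had 16, 10 and 27 reads in footpad replicates 1, 2 and 3, or 0.352 ± 0.203 CPM (SD, n = 3). With the flank skin tumors set at their detection limit of 3 reads per library, this was at least 6.995-fold higher. Fgf18 had too few reads for the main test. It was called when the filter on low counts was dropped, with an adjusted p of 0.0465, and without footpad replicate 2, with 0.0449 (edgeR). It was not called without flank replicates 1, 2 or 3, with 0.0765, 0.0778 and 0.125. In the fits that left out a tumor, Fgf18 met the filter through footpad tumors alone. Fgf16, related to Fgf9, had 15, 6 and 4 reads, or at least 3.35-fold higher than the flank skin tumors at the same limit, with an adjusted p of 0.122 when the filter was dropped (edgeR).

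The other canonical ligands were at or near 0. Fgf10, the partner of Fgf7 in signaling to epithelium, had 11, 17 and 0 reads in footpad tumors and 0, 9 and 4 reads in flank skin tumors. Fgf22 had 18 reads in footpad replicate 2 and 4 in flank skin replicate 3. Fgf4, an early embryonic ligand, had 7 reads in footpad replicate 1 alone. Fgf3, Fgf5, Fgf6, Fgf8, Fgf17 and Fgf20, as well as the endocrine ligand Fgf15, had 0 reads in all 6 tumors, which allows a level of up to 0.0438 to 0.0673 CPM, depending on the tumor, and covers counting error only.

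Fgf21 (chromosome 7, 45613890 to 45615490), an endocrine ligand made by liver and by stressed cells, was the member with the strongest fall. It had 26, 98 and 15 reads in footpad tumors and 565, 305 and 214 reads in flank skin tumors. In CPM these were 0.584, 1.43 and 0.306 against 9.74, 5.22 and 3.42. The highest footpad tumor, replicate 2, remained below the lowest flank skin tumor. Means were 0.773 ± 0.585 and 6.13 ± 3.26 CPM (SD, n = 3 per site), a 7.82-fold lower level in the fitted model, with a log2 fold change of -2.97 and a standard error of 0.64 (edgeR, adjusted p = 0.0459). DESeq2 gave an adjusted p of 2.76e-05. Among the 6 edgeR fits that left out a tumor, the call held in that without footpad replicate 2, where the log2 fold change was -3.78. The adjusted p was 0.160 or 0.140 without footpad replicates 1 or 3, and 0.0879, 0.0765 or 0.0961 without flank replicates 1, 2 or 3. The log2 fold change in these fits ran from -3.78 to -2.47.

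The Fgf21 promoter printed above holds the ATF composite element, and binding to it was not measured. Adipocyte markers, from another tissue that makes Fgf21, summed to 0.269, 1.02 and 0.470 CPM in footpad and 2.104, 5.94 and 0.559 CPM in flank skin tumors, and adiponectin (Adipoq) did not exceed 0.462 CPM in any tumor. The 3 tested adipocyte markers had negative fold changes, with a median of -2.66 on the log2 scale, and the part of adipocytes in the Fgf21 difference was not tested. Klb, which encodes the β-Klotho co-receptor of FGF21, had 6 reads in flank skin replicate 2 and 0 in the other 5 tumors. Fgf23, the bone-derived phosphate hormone, had 4 reads in flank skin replicate 2 alone, and its co-receptor gene Kl had 3, 0 and 0 against 15, 2 and 3 reads. Klb and Kl were named after their values were seen.

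The 4 intracellular homologs are not secreted and act on sodium channels and other partners inside the cell. Fgf11 passed the filter, at 3.03, 1.76 and 2.06 CPM in footpad and 3.43, 0.941 and 0.527 CPM in flank skin tumors, with overlapping sites (edgeR, adjusted p = 0.683). Fgf12 had 25, 21 and 8 reads in footpad tumors and 2, 0 and 0 in flank skin tumors, a ratio of pooled CPM of 29.8 with an exact 95% counting interval from 7.87 to 253. Fgf13 had 4, 26 and 4 against 2, 0 and 0 reads, a ratio of 18.8 (4.81 to 161), and most of its reads came from footpad replicate 2. These intervals treat reads as independent and leave out the spread between tumors. When the filter on low counts was dropped, the adjusted p was 0.0928 for Fgf12 and 0.238 for Fgf13 (edgeR). Fgf14 had 1, 0 and 1 against 5, 0 and 0 reads.

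**Figure D2:**
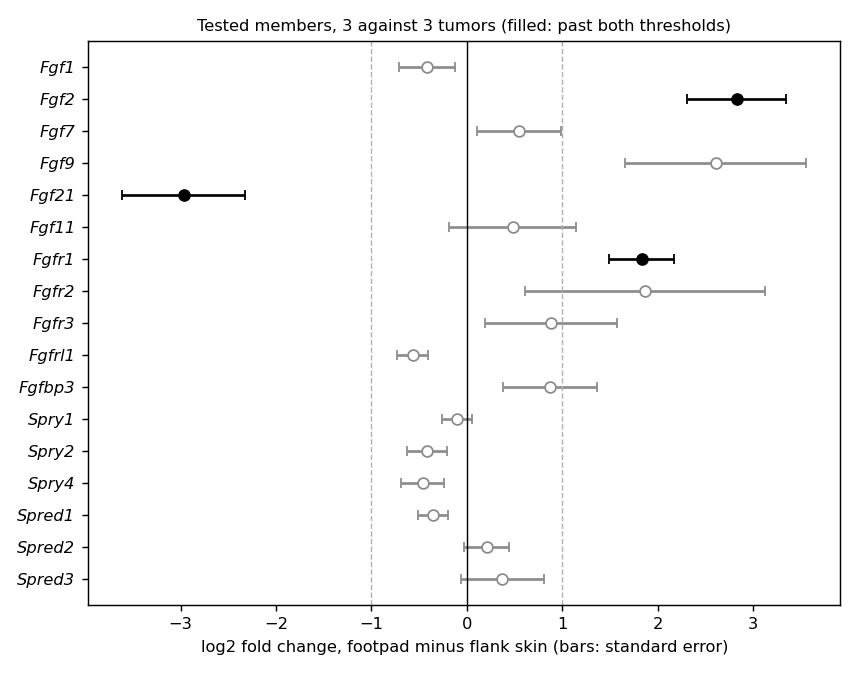
Log2 fold change, footpad minus flank skin, of the 17 tested members with 3 tumors per site. Bars are standard errors, filled points passed both thresholds, and dashed lines mark a fold change of 2 in either direction. Fgf2 at 2.83 and Fgfr1 at 1.83 lie to the right, Fgf21 at -2.97 lies to the left, and the Sprouty and Spred genes lie between -0.46 and 0.37.

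Among the receptors, Fgfr1 was the kinase-bearing receptor with the most FPKM in every tumor and was called higher in footpad tumors. Fgfr1 (chromosome 8, 25518759 to 25575718), the main FGF receptor of mesenchymal cells, was at 38.9, 19.3 and 32.1 CPM in footpad tumors and at 10.9, 9.13 and 5.30 CPM in flank skin tumors. The lowest footpad tumor, again replicate 2, was above the highest flank skin tumor. Means were 30.1 ± 9.96 and 8.45 ± 2.86 CPM (SD, n = 3 per site). Fgfr1 rose 3.56-fold, with a log2 fold change of 1.83 and a standard error of 0.34 (edgeR, adjusted p = 0.0333), and DESeq2 gave 5.01e-06. Among the 6 edgeR fits that left out a tumor, the call held in that without footpad replicate 2. Without footpad replicates 1 or 3 the adjusted p was 0.116 or 0.126, and without flank replicates 1, 2 or 3 it was 0.0539, 0.0698 or 0.0999. The fold change stayed between 1.58 and 2.07 on the log2 scale. Fibroblast and endothelial markers, given above, were higher in the same tumors. The endothelial and neutrophil sums were higher in footpad replicates 1 and 3 than in replicate 2. The part of these cells in the Fgfr1 difference was not tested. The span of Fgfr1 also holds the non-coding genes Gm31288 and Gm16159, whose counts are not given here.

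Per transcript length, Fgfr1 was at 6.48, 3.62 and 5.90 FPKM in footpad and 1.77, 1.78 and 0.959 FPKM in flank skin tumors. It made up 96.1%, 67.2% and 96.7% of the summed FPKM of the 4 kinase-bearing receptors in footpad tumors and 92.3%, 77.9% and 73.9% in flank skin tumors. The shares overlapped between sites. Fgfr3 took 20.1% and Fgfr2 12.6% in footpad replicate 2, while in the other footpad tumors Fgfr3 took at most 3.14% and Fgfr2 at most 0.788%.

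**Figure D3:**
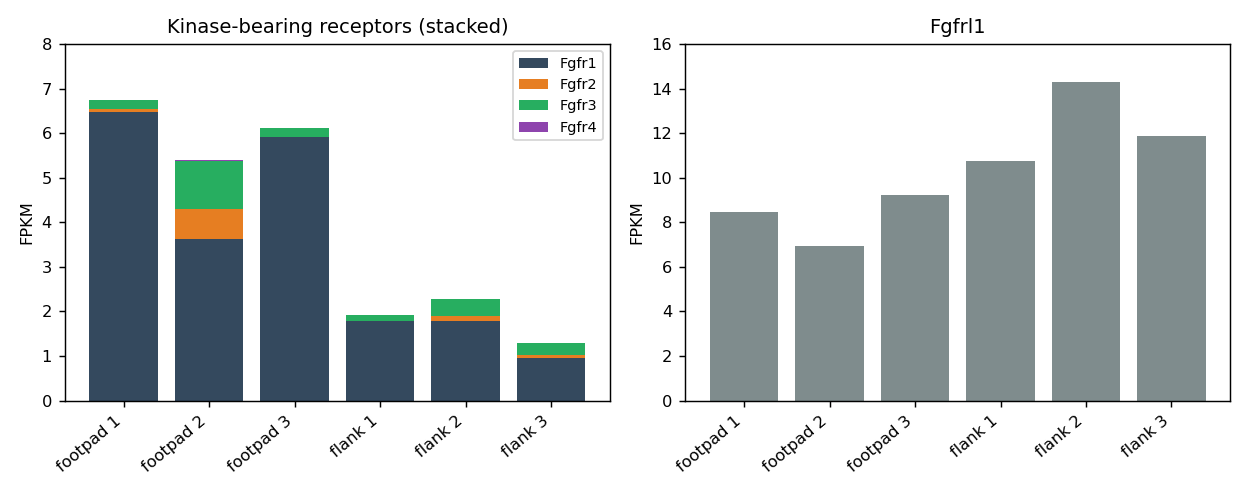
FPKM of the FGF receptors in each tumor. The left panel stacks the 4 kinase-bearing receptors and the right panel shows Fgfrl1, which lacks a kinase; bars are single tumors and carry no error. Fgfr1 fills 67.2% to 96.7% of each stack, and Fgfrl1 is lower in each footpad tumor than in each flank skin tumor.

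Fgfr2, an epithelial receptor for FGF7 and FGF10, and Fgfr3, also prominent in epithelium and cartilage, did not pass the test, and footpad replicate 2 set the direction of both. Fgfr2 was at 0.359, 3.65 and 0.122 CPM in footpad and 0.0517, 0.650 and 0.431 CPM in flank skin tumors. Fgfr3 was at 1.10, 4.74 and 0.857 against 0.724, 1.69 and 1.23 CPM. The highest tumor for both was footpad replicate 2, and the sites overlapped. The log2 fold change of Fgfr2 was 1.87 (edgeR, adjusted p = 0.391) and became -0.66 without that tumor (adjusted p = 0.732). For Fgfr3 it was 0.88 (edgeR, adjusted p = 0.459) and became -0.32 (adjusted p = 0.724). Fgfr4 had 3 reads in footpad replicate 2, 3 in flank skin replicate 3 and 0 in the others.

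The binding proteins, which release FGFs from the matrix, were likewise highest in footpad replicate 2. Fgfbp1, a carrier made by squamous epithelium, had 3, 91 and 0 reads in footpad tumors and 3, 3 and 4 reads in flank skin tumors, so that 1 tumor held nearly all reads. Fgfbp3 was at 1.57, 3.92 and 1.57 CPM against 0.828, 1.78 and 1.26 CPM, with overlapping sites (edgeR, adjusted p = 0.308). Footpad replicate 2 was also the tumor with the highest level of all 7 tested keratinocyte markers and of all 8 tested skeletal muscle markers. The list of 10 keratinocyte markers summed to 59.9, 638 and 41.5 CPM in footpad and 17.8, 29.3 and 30.1 CPM in flank skin tumors. Fgfr2 and Fgfr3 were higher in flank skin replicates 2 and 3 than in footpad replicates 1 and 3, where this sum was higher. The part of keratinocytes or muscle in the levels of Fgfr2, Fgfr3, Fgfbp1 and Fgfbp3 was not tested.

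**Figure D4:**
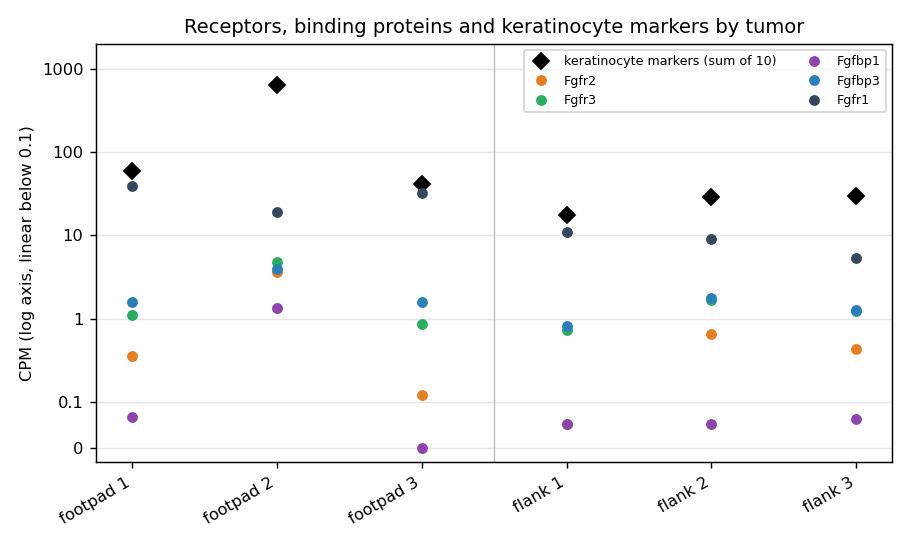
CPM of Fgfr2, Fgfr3, Fgfbp1, Fgfbp3 and Fgfr1 in each tumor beside the summed CPM of 10 keratinocyte markers (diamonds), on a log axis that is linear below 0.1, with a line between the sites. Footpad replicate 2 has the highest value of the markers, 638 CPM, and of Fgfr2, Fgfr3, Fgfbp1 and Fgfbp3, whereas its Fgfr1 level is the lowest of the footpad tumors.

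Fgfrl1 (chromosome 5, 108694229 to 108706950) encodes an FGF receptor without a kinase domain and is often described as a brake on the pathway. It was at 26.98, 19.6 and 26.9 CPM in footpad and 34.7, 39.0 and 34.9 CPM in flank skin tumors, with no overlap. The means were 24.5 ± 4.24 and 36.2 ± 2.42 CPM (SD, n = 3 per site). The log2 fold change was -0.57 with a standard error of 0.16 and a 95% interval from -0.95 to -0.19. It did not pass after adjustment by edgeR (adjusted p = 0.0860) and passed by DESeq2 (adjusted p = 0.0280), below a fold of 2 in both, and over all alternatives the adjusted p ran from 0.0280 to 0.191. By mean FPKM over the 6 tumors, Fgfrl1 at 10.3 was above Fgfr1 at 3.42.

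None of the 6 Sprouty and Spred genes tested was called by edgeR or DESeq2, which called 3.76% and 8.75% of all genes tested. In edgeR 0 of the 6 had an unadjusted p under 0.05, where 25.3% of all genes tested had such a p. With 6 genes, these counts are close to those shares. These inhibitors were nonetheless among the most abundant members, with mean FPKM over the 6 tumors of 25.3 for Spred1, 13.0 for Spry2, 4.84 for Spry1, 3.08 for Spred2, 2.95 for Spry4 and 1.16 for Spred3. Spry1, Spry2 and Spry4 encode proteins that are induced by the pathway they restrain. Spry1 was the steadiest, at 11, 13.0 and 12.4 CPM in footpad and 12.5, 13.0 and 13.6 CPM in flank skin tumors, with a log2 fold change of -0.10 and an interval from -0.48 to 0.27 (edgeR, adjusted p = 0.727). Spry2 was at 30.7, 23.8 and 28.5 against 48.2, 29.9 and 32.3 CPM (log2 fold change -0.41, interval -0.90 to 0.08; edgeR, adjusted p = 0.263). The sites overlapped for both.

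Spry4 was at 16.9, 9.54 and 13.0 CPM in footpad and 17.1, 19.1 and 18.0 CPM in flank skin tumors. The sites did not overlap, but the highest footpad tumor nearly reached the lowest flank skin tumor, and the log2 fold change of -0.46 (interval -0.98 to 0.06) did not pass (edgeR, adjusted p = 0.243). Spred1, a RAS-pathway inhibitor that acts with neurofibromin, was at 158.2, 139.7 and 168.8 CPM in footpad and 169.5, 202.1 and 223.9 CPM in flank skin tumors. It was again lower in each footpad tumor by a small margin (log2 fold change -0.35, interval -0.71 to 0.01; edgeR, adjusted p = 0.206). Spred2 and Spred3 had positive fold changes of 0.21 and 0.37 on the log2 scale with overlapping sites (edgeR, adjusted p = 0.616 and 0.627), and that of Spred2 became -0.09 without footpad replicate 1.

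Of 37 other genes of the pathway, 34 were tested, 1 was called higher and 2 were called lower in footpad tumors, and DESeq2 called 3 higher and 2 lower. With the replicate number as a block, edgeR called 0 of them, with adjusted p of 0.0778 for Sulf1, 0.0769 for Etv1 and 0.0694 for Etv5, the genes called otherwise. Over all genes tested, 2.89% were called higher and 0.872% lower. Among 14 tested co-receptors and genes of heparan sulfate, the sugar chain that holds FGFs at the receptor, Sulf1 was called. Sulf1 encodes an extracellular enzyme that removes sulfate groups from heparan sulfate and reduces FGF2 signaling. It was at 11.1, 8.999 and 13.4 CPM in footpad and 2.16, 3.22 and 2.01 CPM in flank skin tumors, with no overlap. Sulf1 rose by 2.18 on the log2 scale, with a standard error of 0.28 (edgeR, adjusted p = 0.0141). Without footpad replicates 1 or 3 its adjusted p was 0.0620 or 0.0842, and without flank replicate 3 it was 0.0703. Sulf2, from the same list and named after its values were seen, was more abundant and did not pass. It was at 143, 162 and 122 CPM in footpad and 59.4, 184 and 185 CPM in flank skin tumors. Its log2 fold change was -0.006 (edgeR, adjusted p = 0.994). Mean FPKM over the 6 tumors was 33.4 for Sulf2 and 1.23 for Sulf1. Flrt2, also named after its values were seen, had the largest fold change of the tested genes of this list. It was at 9.23, 5.94 and 14.6 CPM in footpad and 0.621, 2.65 and 0.336 CPM in flank skin tumors, with no overlap. Its log2 fold change of 3.04 did not pass in edgeR (adjusted p = 0.0635), while DESeq2 called it (adjusted p = 0.000119). Over the list, 9 of the 14 genes had all footpad tumors above all flank skin tumors, where this held for 17.5% of all genes tested, and the median log2 fold change was 0.37.

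Of the 9 adaptor genes, which carry the signal from the receptor to RAS and ERK, 0 were called by edgeR or DESeq2. In edgeR 1 had an unadjusted p under 0.05. Over all genes tested, edgeR called 3.76% and DESeq2 8.75%, and 25.3% had such a p in edgeR. The smallest p belonged to Cbl, a ubiquitin ligase that sends active receptors for degradation, with a log2 fold change of 0.59 (edgeR, adjusted p = 0.125). Next was Shc1, with -0.23 (edgeR, adjusted p = 0.295). The list median was 0.11.

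The 11 tested genes that commonly rise with ERK activity had a median log2 fold change of -0.07, and 0 were called higher and 2 lower by edgeR, with 1 higher and 2 lower by DESeq2 and 4 at an unadjusted p under 0.05 in edgeR, where 25.3% of all genes tested had such a p. The genes called were Etv1 and Etv5, ETS transcription factors that act downstream of FGF receptors. Etv1 was at 11.3, 13.6 and 15.3 CPM in footpad and 42.5, 32.7 and 32.7 CPM in flank skin tumors. It fell by 1.42 on the log2 scale, with a standard error of 0.18 (edgeR, adjusted p = 0.0141). Etv5 was at 28.7, 23.3 and 28.8 against 55.6, 66.4 and 71.3 CPM. It fell by 1.26, with a standard error of 0.15 (edgeR, adjusted p = 0.0141). For both genes every footpad tumor lay well below every flank skin tumor. Without footpad replicates 1 or 3, or flank replicate 3, the adjusted p was 0.0611, 0.0702 and 0.0586 for Etv1 and 0.0611, 0.0752 and 0.0660 for Etv5.

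Dusp6 and Dusp5, ERK phosphatases named after their values were seen, had fold changes of opposite sign. Dusp6 was at 210.0, 179.7 and 229.7 CPM in footpad and 309.8, 319.3 and 341.5 CPM in flank skin tumors. Its log2 fold change of -0.65 passed the adjusted p (edgeR, 0.0491) but not the fold threshold, and the adjusted p ran from 0.0670 to 0.150 when each tumor was left out. Dusp5 was at 8.93, 2.23 and 4.78 against 1.90, 0.667 and 0.799 CPM, with a log2 fold change of 2.24 (edgeR, adjusted p = 0.0759). DESeq2 called it, with an adjusted p of 0.00221. Unlike Fgf2 and Fgfr1, which were higher in footpad tumors, Etv1, Etv5 and Dusp6 were lower there, and Spry1, Spry2, Spry4 and Spred1 had negative fold changes that did not pass the test. Of the 11 ERK-responsive genes, 6 had negative and 5 positive fold changes, with Dusp5 among the positive ones. Spred2 and Spred3 also had positive fold changes that did not pass. Melanocyte markers overlapped between the sites, but 7 of the 8 had negative fold changes, as given above. The part of tumor and host cells in these levels was not tested.

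**Figure D5:**
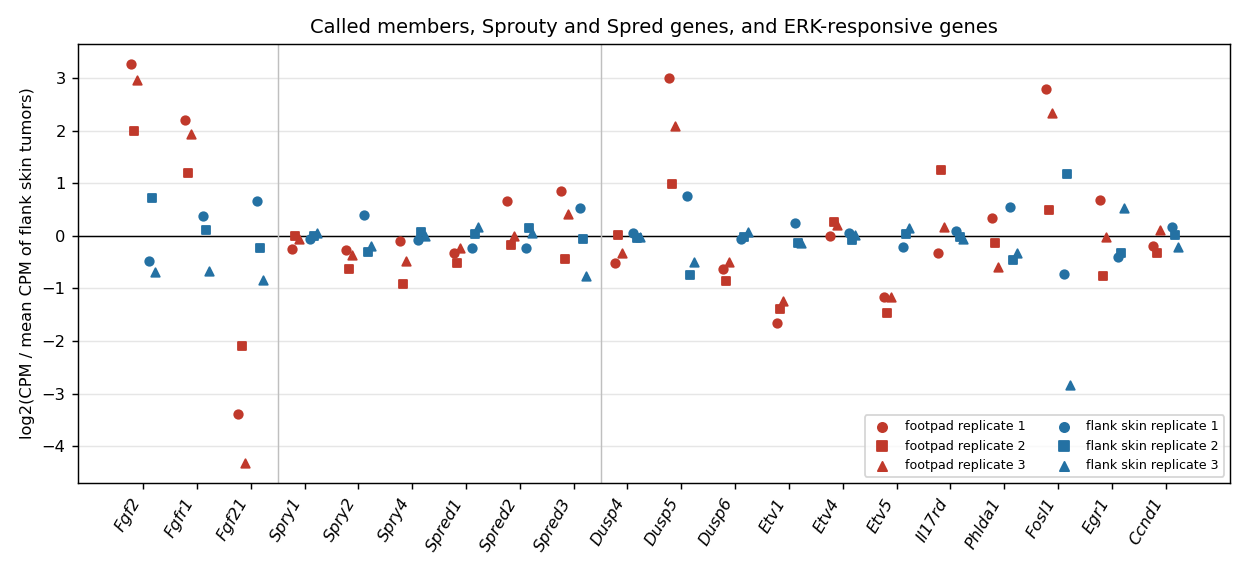
Log2 ratio of the CPM in each tumor to the mean CPM of the 3 flank skin tumors, for the 3 called members (left), the 6 Sprouty and Spred genes (middle) and 11 ERK-responsive genes (right). Red symbols are footpad and blue symbols flank skin tumors, with the shape giving the replicate. Etv1 and Etv5 have all red symbols below the blue, as does Dusp6 by a smaller margin, while Fgf2 and Fgfr1 have all red symbols above.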

How the data were processed

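Total RNA of 3 footpad and 3 flank skin B16F10 tumors was sequenced from stranded libraries, and site and replicate were taken from the labels. Per the labels and the study's methods, the authors checked reads with FastQC 0.11.7, trimmed them with Trimmomatic and aligned them to mm10 with HISAT2 2.1.0. The authors deposited unnormalized whole-number counts of reads per gene, together with FPKM, in which the authors corrected for depth and transcript length. The counting program, its strand setting and its treatment of shared reads are not given in the sources used here, so overlapping genes are uncertain. FPKM served only to compare levels between genes and in alternatives.

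Counts were fitted in R 4.3.3 with edgeR 4.0.16 (TMM, filterByExpr at its defaults, glmQLFit and glmQLFTest) over 17210 genes with Benjamini-Hochberg adjustment, and the step was tested on simulated data. A call required at least a 2-fold change with an adjusted p under 0.05. The standard error was taken as the size of the log2 fold change divided by the square root of F, and 95% intervals, not adjusted for the number of genes, were derived from it. Alternatives were DESeq2 1.42.0, no filter, 10 counts in every tumor, upper-quartile scaling, limma 3.58.1 on log2(FPKM + 1) and log2(FPKM + 0.1), omission of each tumor in turn, a block on the replicate number, and no fold threshold. Figures used Python 3.11.15 and matplotlib 3.10.9.

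Tumors had 46529649 to 66364366 counted reads, and the common biological coefficient of variation was 0.338. The labels do not say whether the tumors came from separate mice. The methods describe injection of several sites per mouse, and a figure legend gives 3 mice for selected genes compared between these sites. The p-values therefore measure the spread between these tumors, and the main test ignores any sharing of mice. No source ties replicate numbers to mice, and same-numbered tumors were not treated as pairs in the main test. Deviations from the site means correlated at 0.128, -0.157 and -0.087 for replicates 1, 2 and 3. With 3 tumors per site that differ in host tissue, these values cannot show whether same-numbered tumors share a mouse. The genes described and the pathway and marker lists were chosen with earlier results of these data known. Named with values in every tumor were members that were called, did not overlap between sites, had an unadjusted p under 0.05 or were the most abundant of their role, and other members are given where counts were low. From the pathway lists the called genes were named, or otherwise the 2 with the smallest p, and genes named after their values were seen are marked as such. Promoters were taken from RefSeq (GRCm38.p6).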

Additional observations from a re-analysis of the deposited data

How the results depend on the processing

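Of 219 log2 fold changes of single members under alternatives, 198 kept their direction and side of the threshold. Most of these belong to the 14 tested members that were not called and had no call to lose. A further 18 kept the direction and lost the call, and all were values of Fgf2, Fgfr1 or Fgf21. The remaining 3 reversed, which were Fgfr2 (-0.66) and Fgfr3 (-0.32) without footpad replicate 2 and Spred2 (-0.087) without footpad replicate 1. When each tumor was left out, these ranged from -0.66 to 2.497, from -0.32 to 1.26 and from -0.087 to 0.36. For members, 2 were called higher and 1 lower. Limma on log2(FPKM + 1) called 1 higher, and leaving out each tumor gave 0 to 3 higher and 0 to 1 lower. For pathway genes, 1 was called higher and 2 lower. DESeq2 called 3 higher, a minimum of 10 counts 2 higher, limma on log2(FPKM + 0.1) 2 higher, and leaving out each tumor gave 0 to 2 higher and 0 to 2 lower. Over all genes, 497 were called higher and 150 lower. DESeq2 called 1154 and 352, limma on log2(FPKM + 1) 271 and 95, no fold threshold gave 248 lower, and leaving out each tumor gave 0 to 639 higher and 0 to 197 lower. The cause of these changes was not tested. With the replicate number as a block in edgeR, 0 members, 0 pathway genes and 0 of all genes were called in either direction, while 1378 genes were higher and 413 lower by at least 2-fold at an unadjusted p under 0.05; DESeq2 and limma were not run with a block. The blocked log2 fold changes were 2.89 for Fgf2, 1.83 for Fgfr1 and -3.11 for Fgf21 (adjusted p = 0.114, 0.0872 and 0.0862). Only 1 of the 6 tumors correlated best with the tumor of its own number at the other site, which does not settle whether these share a mouse. Depth limited the ligands with few reads, and 18 members could not be tested.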

Other observations

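A list of 16 genes that respond to ATF4, the stress factor that is known to raise Fgf21, was written after the Fgf21 values were seen, so its counts are a description. Fold changes, footpad minus flank skin, were negative for 13 of the 16 genes and positive for 3, with a median of -0.70 on the log2 scale against -0.004 over all genes tested. With Benjamini-Hochberg adjustment, edgeR's quasi-likelihood test called 1 gene, where 0.872% of all genes were called lower, and 9 had an unadjusted p under 0.05, as did 25.3% of all genes. DESeq2 called 6 lower and 1 higher, and 8.75% of all genes in either direction. The gene called by edgeR was Gdf15, which encodes another stress-induced hormone. Its levels were 1.37, 1.82 and 1.57 CPM in the footpad and 6.04, 3.44 and 4.31 CPM in the flank skin (replicates 1, 2 and 3), with no overlap. Gdf15 fell by 1.53 on the log2 scale (edgeR, adjusted p = 0.0400), and of the 6 fits that left out a tumor the call held in that without flank replicate 2. The adjusted p was 0.140, 0.0507 or 0.146 without footpad replicates 1, 2 or 3, and 0.0745 or 0.116 without flank replicates 1 or 3.

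Several genes of amino acid synthesis on that list had negative fold changes that did not pass in edgeR. Cth, of cysteine synthesis, was at 1.66, 4.10 and 2.31 CPM in footpad and 6.23, 10.1 and 12.2 CPM in flank skin tumors, with no overlap (log2 fold change -1.82, adjusted p = 0.0502). Phgdh, the first enzyme of serine synthesis, was at 58.2, 85.2 and 58.1 against 104.5, 140.3 and 261.7 CPM (-1.33, adjusted p = 0.0666). Atf4 itself had a log2 fold change of -0.72 (adjusted p = 0.142), and Ddit3 of -0.50 (adjusted p = 0.544), with overlapping sites for both. The exception without overlap was Vldlr, a lipoprotein receptor, at 11.2, 11.7 and 7.08 against 4.59, 5.23 and 4.43 CPM (1.08, adjusted p = 0.0558). Flank skin replicate 3 had the highest level of Phgdh and Cth, whereas Fgf21 and Gdf15 were highest in flank skin replicate 1.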
